A study of Homo sapiens with 20 samples.

Results

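The IFIT and IFITM genes encode antiviral proteins that cells make in response to interferon, and their RNA was followed here across lung cancer cell lines with or without *ADAR*. The members were *IFIT1*, *IFIT2*, *IFIT3*, *IFIT5*, *IFITM1*, *IFITM2* and *IFITM3*, chosen by name. Each matched 1 Ensembl identifier, so 7 of the 58233 genes counted in the files were followed, 4 of them IFITs and 3 of them IFITMs.

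Type I interferon signals through its receptor to JAK kinases and then to transcription factors that bind interferon-stimulated response elements near the start sites of its target genes. IFIT proteins sit in the cytoplasm: IFIT1 binds foreign RNA that lacks the cap modifications of the host and blocks its translation, IFIT2 and IFIT3 form complexes with IFIT1, and IFIT5 binds RNA with a triphosphate end. IFITM proteins are small membrane proteins that hinder the fusion of enveloped viruses with cell membranes, IFITM1 mainly at the cell surface and IFITM2 and IFITM3 mainly in endosomes.

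The study deals with ADAR1, the enzyme encoded by *ADAR* that converts adenosine to inosine in double-stranded RNA, and asks why some cancer cell lines need it. RNA sequencing covered 20 libraries in 10 conditions, 2 libraries per condition. All cells were transduced with lentivirus carrying Cas9 and 1 sgRNA, against *GFP* as the control (a sequence the human genome does not hold) or against *ADAR*, so the control cells also carried Cas9. The 2 libraries of a condition differed in their sgRNA, sg1 or sg2.

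HCC366 (lung adenosquamous carcinoma), NCI-H1650 (lung adenocarcinoma) and NCI-H196 (variant small cell lung cancer) are the lines that the study calls ADAR1-dependent, and their RNA was taken days after transduction without interferon. A549 (lung adenocarcinoma) is a line that the study calls non-dependent. For A549, cells of each target were given IFN-β at 10 ng/mL, or vehicle, and were kept so for 24 h. The knockout (KO) was made in transduced populations, so each library can hold cells with an intact *ADAR*. In bulk RNA, fewer cells of one kind and less RNA per cell cannot be told apart. No source used here says that the 2 sgRNAs stand for separate repeats, and the p-values therefore cover only spread between libraries. The tests estimate that spread with information shared across genes. Their SE and p-values therefore need not reflect the spread of a single gene between its 2 libraries.

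The libraries held 62679 to 19520189 counts on genes (median 6411279). NCI-H196 GFP sg2 was the shallowest, and 1 read there was worth 14.7 CPM (counts scaled to a common library size with TMM) within its line. In HCC366, ADAR sg2 had 85.6% of its alignments at more than 1 place, and GC content and gene length accounted for 50.7% of its variance against the other libraries of the line, more than in any of them (13.6% to 35.1%). *ADAR* itself was lower in both ADAR KO libraries than in both GFP libraries of every line and treatment, with log2 fold changes between -1.29 in NCI-H1650 and -0.41 in NCI-H196, and the difference in HCC366 (-0.84, adjusted p = 0.208) did not pass the test. The adenocarcinoma marker *NKX2-1* reached at most 1 count in any library, *KRT19* was at 0 in HCC366 control cells (where the epithelial genes *KRT8*, *KRT18* and *CDH1* had 1715, 889 and 8.53 CPM), and the neuroendocrine markers *NEUROD1* and *INSM1* were at 0 in NCI-H196 control cells. Leukocyte and endothelial markers reached at most 13 counts, and *CD3E* was at 0.

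The 4 IFIT members lie side by side on human chromosome 10 (chr10:91043451-91181362, hg19, 137912 bp), all on the plus strand. In order, *IFIT2* lies at chr10:91043451-91069028, *IFIT3* at chr10:91087064-91137230, *IFIT1* at chr10:91152303-91166244 and *IFIT5* at chr10:91174325-91181362. The 3 IFITM members share a far shorter stretch of chromosome 11 (chr11:303655-329475, 25821 bp). *IFITM2* lies at chr11:303655-309397 and *IFITM1* at chr11:310041-315272, both on the plus strand, while *IFITM3* lies on the minus strand at chr11:319676-329475. *LIPA*, on the opposite strand, spans much of the IFIT stretch but shares at most 94 bp of exon with a member, and it held 8286 counts over the 20 libraries against 202668 for the members. *IFITM1* shares 176 bp of exon with an antisense RNA that held 105 counts and 351 bp with a readthrough gene that was not among the identifiers counted. The IFITM genes are close paralogues, so reads that align to several of them are not in these counts, and their levels are uncertain to that extent. The 14 annotated pseudogenes of the families held 530 counts.

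Sequence upstream of the start sites is shown because all 7 members rose with IFN-β in A549. The RefSeq sequences used here covered 5 of the 7 members and 6 start sites, all in build GRCh38.p14, a different build from that of the counts, and *IFIT2* and *IFITM2* are not shown. Each line holds 180 bases in the direction of the gene, 170 before the start site and 10 from it on. Capitals mark matches to GAAANNGAAA or its reverse complement TTTCNNTTTC, the core letters of an interferon-stimulated response element.
IFIT1, chr10:89392453-89392632, plus strand: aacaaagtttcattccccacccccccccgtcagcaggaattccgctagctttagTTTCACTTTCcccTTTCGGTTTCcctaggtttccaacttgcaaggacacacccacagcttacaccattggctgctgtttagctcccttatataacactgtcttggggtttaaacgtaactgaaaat
IFIT3, chr10:89327827-89328006, plus strand: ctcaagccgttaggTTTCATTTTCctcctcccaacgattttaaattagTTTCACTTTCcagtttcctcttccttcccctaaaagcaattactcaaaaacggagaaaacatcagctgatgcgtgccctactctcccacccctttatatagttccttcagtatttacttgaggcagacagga
IFIT3, chr10:89332359-89332538, plus strand: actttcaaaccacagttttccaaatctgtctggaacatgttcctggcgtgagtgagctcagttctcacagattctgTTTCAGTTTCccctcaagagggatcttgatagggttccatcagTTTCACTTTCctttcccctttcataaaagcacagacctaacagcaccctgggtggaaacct
IFIT5, chr10:89414398-89414577, plus strand: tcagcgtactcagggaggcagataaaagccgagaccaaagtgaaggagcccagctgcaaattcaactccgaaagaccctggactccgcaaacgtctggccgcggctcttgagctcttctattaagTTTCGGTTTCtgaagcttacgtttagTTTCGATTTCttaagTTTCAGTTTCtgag
IFITM1, chr11:313870-314049, plus strand: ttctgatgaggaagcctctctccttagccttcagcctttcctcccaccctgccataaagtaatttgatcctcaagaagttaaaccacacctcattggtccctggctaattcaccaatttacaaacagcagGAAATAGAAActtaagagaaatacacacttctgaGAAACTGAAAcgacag
IFITM3, chr11:320851-321030, minus strand: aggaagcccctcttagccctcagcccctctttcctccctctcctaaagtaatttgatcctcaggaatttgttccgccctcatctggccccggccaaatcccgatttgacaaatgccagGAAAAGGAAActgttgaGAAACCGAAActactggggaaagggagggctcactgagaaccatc

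Each of the 6 windows held at least 2 matches, and *IFIT5* held 3. In the IFIT windows every match stood on the strand opposite to the gene, and in the IFITM windows every match stood on the gene's own strand. The matches closest to the start began 4 bases before it in *IFIT5* and 6 bases before it in *IFITM1*, whereas those of *IFIT1* began 116 and 103 bases before it. Over all 35116 RefSeq windows of 300 bases, 3.57% held a match and 0.259% held 2 or more. A match is a description of the letters and not a measured binding site.

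Without interferon, control A549 cells held almost no RNA of *IFIT1*, *IFIT2*, *IFIT3* or *IFITM1*, while control cells of the other 3 lines held *IFIT1*, *IFIT2* and *IFIT3* at 34.8 to 1275 CPM. *IFITM2* was the exception, with a higher level in A549 than in NCI-H1650 and NCI-H196. The values of this comparison are CPM scaled over the 8 control libraries without IFN-β, given as sg1 and sg2.

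*IFIT2* had 3 and 0 counts in A549, which is 0.507 and 0 CPM, against 255 and 429.6 CPM in HCC366, 1275 and 1007 CPM in NCI-H1650 and 139 and 177 CPM in NCI-H196. *IFIT3* had 2.36 and 2.86 CPM in A549, 148 and 289.9 CPM in HCC366, 703 and 559.5 CPM in NCI-H1650 and 156 and 389.5 CPM in NCI-H196. *IFIT1* had 1.69 and 1.73 CPM in A549, 208 and 517 CPM in HCC366, 320.0 and 346 CPM in NCI-H1650 and 34.8 and 177 CPM in NCI-H196. For these 3 genes both A549 libraries were below all 6 others. *IFIT5* ranged less, from 27.4 and 25.8 CPM in A549 to 67.8 and 131 CPM in HCC366, with NCI-H1650 (63.6 and 81.7 CPM) and NCI-H196 (68.1 and 94.4 CPM) in the same range as HCC366.

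Among the IFITMs, *IFITM3* had 6.59 and 6.59 CPM in A549, 237 and 336 CPM in HCC366, 121 and 136 CPM in NCI-H1650 and 168 and 165 CPM in NCI-H196, so that A549 stood below every other library. *IFITM2* had 36.5 and 32.5 CPM in A549, 46.3 and 46.5 CPM in HCC366, 14.9 and 18.01 CPM in NCI-H1650 and 19.1 and 23.6 CPM in NCI-H196. For *IFITM2* the order was HCC366, A549, then the other 2 lines, whose libraries did not overlap each other but rested on as few as 2 counts. *IFITM1* was rare, with 0 and 1 counts in A549, 0 and 9 in HCC366, 9 and 26 in NCI-H1650 and 216 and 0 in NCI-H196. The 0 in NCI-H196 GFP sg2 allows up to 43.98 CPM within that line at 3 counts, which is above the 24.1 CPM of sg1, so IFITM1 could not have been detected reliably there.

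edgeR's quasi-likelihood test over the 8 control libraries, with p-values adjusted by Benjamini-Hochberg over all genes tested, called 7 of 7 members higher in HCC366 than in A549 (6 with DESeq2, with no filter on low counts or with all 20 libraries in 1 fit, where *IFITM2* was not called), with 32.1% of all genes called higher and 32.8% called lower. In NCI-H1650 6 members were higher and 1, *IFITM2*, was lower, with 33.9% and 34.4% of all genes called higher and lower. In NCI-H196 6 members were higher and *IFITM2* was again lower, with 35.8% and 34.7% of all genes called. The counts stand beside a large share of all genes called in both directions, so the sizes are given with them. The median log2 fold change of the members was 5.47, 5.56 and 4.66 against medians of all genes of 0.00, -0.01 and 0.02. Line, time after transduction and vehicle cannot be told apart in this comparison. DESeq2 size factors in place of TMM moved the libraries by up to 0.13 on the log2 scale.

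*IFIT1* was higher than in A549 by 7.76 ± 0.24 (log2 ± SE) for HCC366, by 7.58 ± 0.23 for NCI-H1650 and by 4.47 ± 0.29 for NCI-H196. These *IFIT1* values were 6.87 for HCC366 without HCC366 GFP sg2 and 6.64 for NCI-H196 without NCI-H196 GFP sg1. *IFIT3* was higher by 6.40 ± 0.22, 7.86 ± 0.22 and 6.02 ± 0.24 in the same order, and by 5.75 for HCC366 without HCC366 GFP sg2 and 7.14 for NCI-H196 without NCI-H196 GFP sg1. *IFIT2* rests on 3 counts in A549, and the ratio of summed and scaled counts was 2224 in HCC366 (95% counting interval 759.9 to 10797), 6661 in NCI-H1650 (2279 to 32307) and 809 in NCI-H196 (276 to 3928). Such intervals cover counting error only. *IFIT5* was higher by 2.01 ± 0.16, 1.45 ± 0.15 and 1.38 ± 0.17, the smallest differences among the IFITs. For HCC366 the *IFIT5* difference was 1.34 without HCC366 GFP sg2, and in NCI-H196 its call was lost without NCI-H196 GFP sg1 (1.81, adjusted p = 0.0691).

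*IFITM3* was higher than in A549 by 4.66 ± 0.18 in NCI-H196, by 4.28 ± 0.17 in NCI-H1650 and, most of all, by 5.47 ± 0.17 in HCC366. *IFITM2* was higher by 0.44 ± 0.18 in HCC366 (adjusted p = 0.0237) and lower in NCI-H1650 (-1.06 ± 0.18, adjusted p = 5.92e-08) and NCI-H196 (-0.84 ± 0.20, adjusted p = 7.4e-05). The HCC366 difference in *IFITM2* lost its call without A549 GFP vehicle sg2, HCC366 GFP sg2 or NCI-H1650 GFP sg2 (adjusted p = 0.139, 0.194 and 0.0539), with DESeq2 (0.412), with no filter (0.36) and with all 20 libraries in 1 fit (0.124). DESeq2 called *IFITM2* lower in neither of the other 2 lines (adjusted p = 0.0666 and 0.175), and the NCI-H196 call was lost without NCI-H196 GFP sg1 (0.809). The *IFITM1* ratio against 1 count in A549 was 33.9 in HCC366 (4.70 to 1486), 66.4 in NCI-H1650 (11.2 to 2698) and 392 in NCI-H196 (69.6 to 15546). Without HCC366 GFP sg2, or without NCI-H196 GFP sg1, the *IFITM1* difference of that line reversed (-1.79 and -1.61), where the remaining library of the line held 0 counts.

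Between the other lines, *IFIT1* in HCC366 and NCI-H1650 was not separated by the edgeR test (0.18 ± 0.14, adjusted p = 0.283), and both exceeded NCI-H196 (3.29 ± 0.21 and 3.11 ± 0.20). Both of the latter calls were lost with DESeq2 (1.88 and 1.77, the latter with an adjusted p of 0.18) and without NCI-H196 GFP sg1 (1.11 and 0.93, adjusted p = 0.133 and 0.268). The HCC366 controls differed for *IFIT1*, and the comparison with NCI-H1650 passed as 0.62 without HCC366 GFP sg1 and as -0.73 without GFP sg2. *IFIT2* was highest in NCI-H1650, above HCC366 by 1.70 on the log2 scale (HCC366 minus NCI-H1650 -1.70 ± 0.15) and above NCI-H196 by 3.01 ± 0.18. *IFIT3* had the same top line (HCC366 minus NCI-H1650 -1.47 ± 0.14, and not called with DESeq2, adjusted p = 0.0592), and HCC366 and NCI-H196 were not separated (0.38 ± 0.18, adjusted p = 0.0529, and 0.82 with a call without HCC366 GFP sg1). *IFITM3* was highest in HCC366, above NCI-H196 by 0.80 ± 0.15 (0.84, adjusted p = 0.182, without NCI-H196 GFP sg1) and above NCI-H1650 by 1.19 ± 0.13. *IFITM2* was not separated between NCI-H1650 and NCI-H196 (-0.22 ± 0.22, adjusted p = 0.394), nor was *IFIT5* (0.07 ± 0.16, adjusted p = 0.723).

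**Figure D1:**
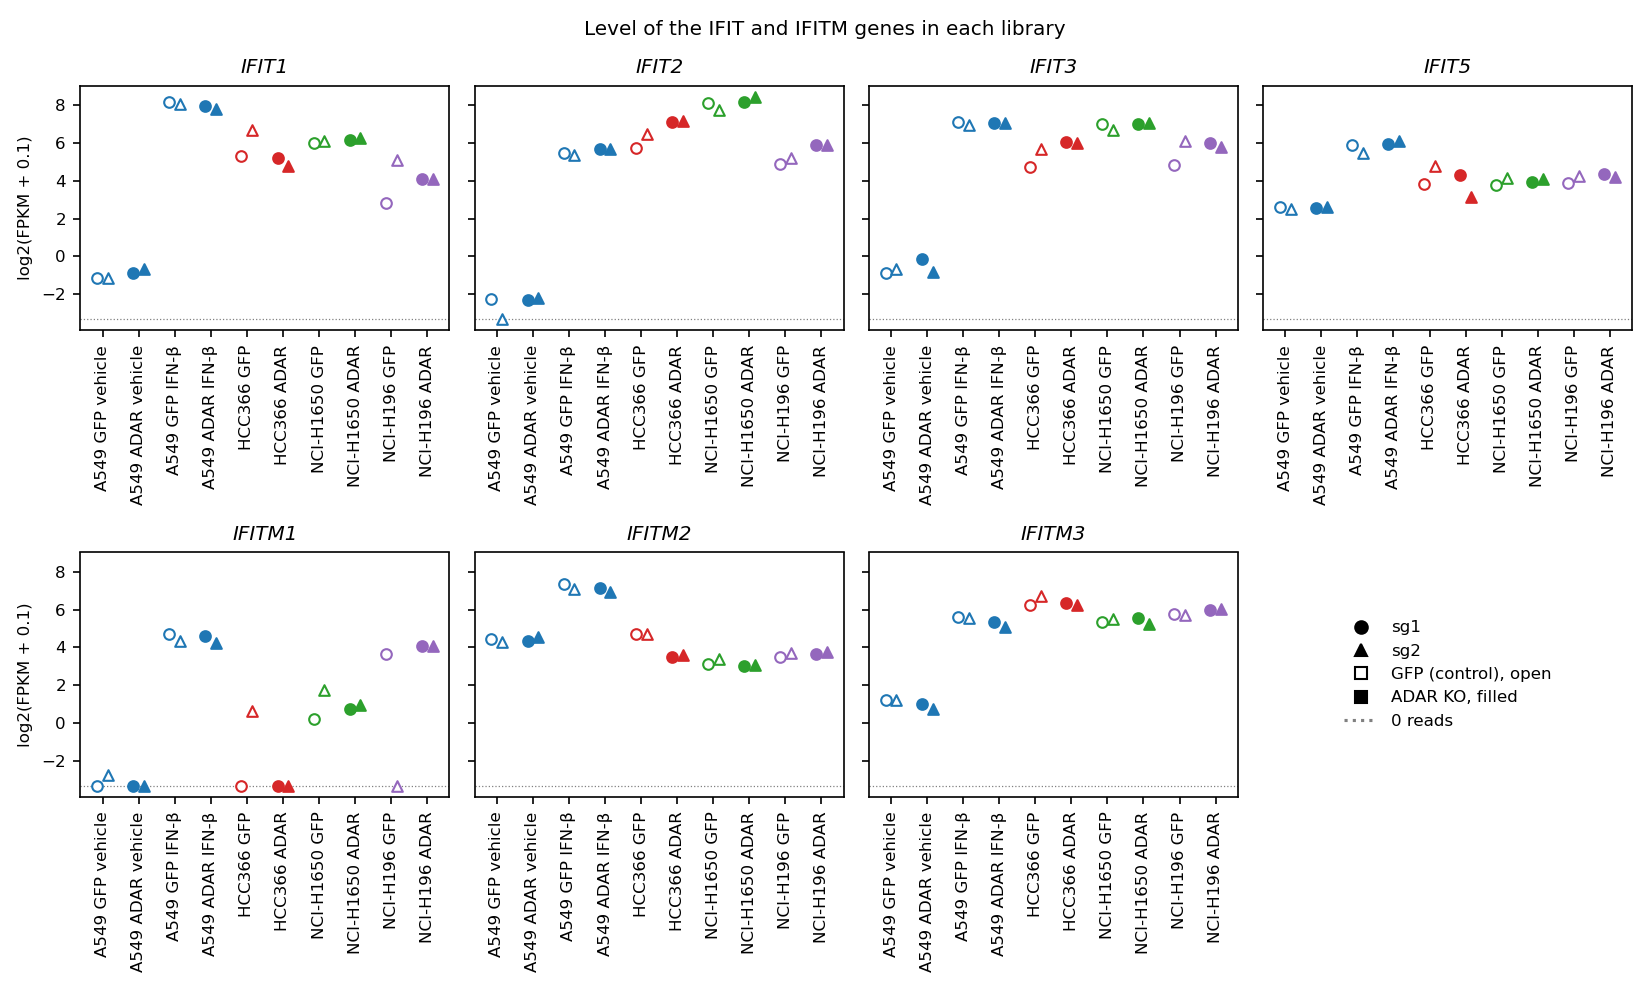
Levels of the 7 genes in all 20 libraries. The vertical axis is log2(FPKM + 0.1), with FPKM per kilobase of exon and scaled over the 20 libraries, circles are sg1, triangles are sg2, open symbols are GFP controls, filled symbols are ADAR KO, and the dotted line is 0 reads. A549 with vehicle stands at the bottom for IFIT1, IFIT2, IFIT3 and IFITM3, whereas for IFITM2 its GFP cells (20.4 FPKM on average) lie below those of HCC366 (25.99 FPKM) and above those of the other 2 lines.

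Levels of different genes were compared per length of their exons, as FPKM scaled over all 20 libraries and averaged over 2 sgRNAs (± SD, n = 2). In A549 control cells with vehicle, *IFITM2* led with 20.4 ± 1.497 FPKM, followed by *IFIT5* (5.79 ± 0.188 FPKM) and *IFITM3* (2.20 ± 0.0184 FPKM), and the other 4 were below 1 FPKM. In NCI-H1650 control cells *IFIT2* led with 246 ± 42.1 FPKM, *IFIT3* came next with 116 ± 19.3 FPKM, and *IFITM2* had 9.57 ± 1.21 FPKM. In HCC366 control cells *IFITM3* (90.7 ± 22.8 FPKM), *IFIT2* (71.3 ± 26.1 FPKM) and *IFIT1* (70.8 ± 43.2 FPKM) did not separate beyond their spread. In NCI-H196 control cells *IFITM3* (53.0 ± 2.19 FPKM) and *IFIT3* (48.3 ± 27.97 FPKM) were likewise within the spread of the latter.

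The order changed with IFN-β. In A549 control cells with IFN-β, *IFIT1* reached 278 ± 17.7 FPKM and stood above *IFITM2* (149 ± 18.1 FPKM) and *IFIT3* (131 ± 8.27 FPKM), whose ranges touched to within their SDs. *IFIT5* (51.7 ± 9.48 FPKM), *IFITM3* (47.4 ± 0.703 FPKM) and *IFIT2* (42.2 ± 1.90 FPKM) formed the next group, and *IFITM1* was lowest with 22.6 ± 4.04 FPKM. Dividing by the longest transcript instead of all exons raised *IFITM3* to 129 FPKM and put it above *IFIT5* (55.8 FPKM), so ranks between neighbours depend on the length used.

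The ADAR knockout was compared with GFP within each line, in CPM scaled over the libraries of that line. In NCI-H1650 *IFIT2* alone passed the test, as higher. In NCI-H196 the 4 IFITs and *IFITM3* passed as higher, but these calls depended on single libraries. In HCC366 and in A549 with vehicle no member passed.

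In NCI-H1650, *IFIT2* had 1335 and 1068 CPM in GFP cells and 1397 and 1665 CPM in ADAR KO cells. Both KO libraries were above both controls, by narrow steps, and the rise was 0.35 ± 0.11 on the log2 scale (1.27-fold, adjusted p = 0.0263). It was the only call among the 7 members tested, with 6.18% of all genes called higher and 2.42% called lower. *IFIT2* lost its call with DESeq2 (adjusted p = 0.581), and without GFP sg2 or ADAR sg2 (0.605 and 0.284).

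The other IFITs of NCI-H1650 moved less. *IFIT1* had 335 and 367 CPM in GFP cells and 373 and 403 CPM in KO cells (0.14 ± 0.10, adjusted p = 0.444). *IFIT3*, the partner of IFIT1 and IFIT2, had 736 and 594 CPM against 718 and 762 CPM (0.15 ± 0.10, adjusted p = 0.414). *IFITM3* had 126 and 145 CPM against 148 and 119 CPM, with a 95% interval of the log2 difference from -0.24 to 0.21, and *IFITM2* had 15.7 and 19.1 CPM against 14.3 and 14.7 CPM (-0.26 ± 0.20). *IFIT5* and *IFITM1* overlapped between the groups, *IFIT5* at 66.6 to 86.7 CPM over the 4 libraries and *IFITM1* at 1.98 to 6.21 CPM.

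In NCI-H196, *IFIT2* had 148 and 220 CPM in GFP cells and 328 and 289 CPM in KO cells, so both KO libraries were above both controls (1.01 ± 0.11, 2.01-fold, adjusted p = 1.64e-18). *IFIT3* had 166 and 484 CPM against 400 and 320 CPM, and its fitted difference was 0.97 ± 0.11 (adjusted p = 1.17e-16). *IFIT1* had 37.03 and 220 CPM against 97.4 and 87.7 CPM, with a fitted difference of 1.18 ± 0.14 (adjusted p = 6.94e-15) although the mean of the libraries went the other way (128 ± 129 CPM in GFP cells, 92.6 ± 6.90 CPM in KO cells). For *IFIT1* and *IFIT3* the KO values lay between the 2 controls. The SE and p-values of this fit rest on spread shared across genes and do not reflect that distance between the controls.

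The spread between the controls exceeded counting error for these genes. The 15 *IFIT1* counts of GFP sg2 gave a 95% counting interval of 123 to 363 CPM, which does not hold the 37.03 CPM of sg1, and the 33 *IFIT3* counts gave 333 to 679 CPM against 166 CPM in sg1. For *IFIT2* the interval of 123 to 363 CPM did hold the 148 CPM of sg1. Without GFP sg1 no member was called, and the differences of *IFIT1* and *IFIT3* turned to -1.29 and -0.48. Without GFP sg2 all 5 calls stood (*IFIT1* 1.27, *IFIT3* 1.04), while without ADAR sg1 or ADAR sg2 none did, and DESeq2 called none and gave *IFIT1* a difference of -0.38.

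*IFIT5* had 72.4 and 117 CPM against 111 and 91.0 CPM in NCI-H196 (0.38 ± 0.12, adjusted p = 0.0163), with overlapping groups. *IFITM3* had 178 and 205 CPM against 225 and 213 CPM and passed by a narrow margin (0.27 ± 0.10, adjusted p = 0.0468). *IFITM1* had 24.1 and 0 CPM against 35.5 and 32.0 CPM (0.45 ± 0.18, adjusted p = 0.0574), and *IFITM2* had 20.3 and 29.3 CPM against 25.4 and 24.3 CPM (0.26 ± 0.19, adjusted p = 0.38). In all, 5 of 7 members passed as higher and none as lower, with 10.3% of all genes called higher and 7.5% called lower, and the median of the members was 0.45 against -0.0039 for all genes.

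In HCC366, IFIT genes went in both directions, and none of the 6 members tested passed (0 calls with edgeR and 0 with DESeq2, where at an unadjusted p under 0.05 edgeR had 1 higher and 2 lower). Of all genes, 1.2% were called higher and 0.0449% lower. *IFIT2* had 248 and 416 CPM in GFP cells and 632 and 696 CPM in KO cells (1.00 ± 0.34, adjusted p = 0.19). *IFIT3* had 143 and 280 CPM against 357 and 372 CPM (0.78 ± 0.37, adjusted p = 0.308), and both genes had both KO libraries above both controls. *IFIT1* went the other way, with 201 and 500 CPM against 181 and 146 CPM, both KO libraries lying below both controls (-1.11 ± 0.44, adjusted p = 0.237).

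*IFITM2* also had both KO libraries of HCC366 below both controls, at 44.9 and 45.0 CPM against 19.2 and 22.0 CPM (-1.12 ± 0.36, adjusted p = 0.172). *IFITM3* had 230 and 325 CPM against 248 and 239 CPM (-0.19 ± 0.32), and *IFIT5* had 65.8 and 127 CPM against 92.7 and 43.97 CPM (-0.52 ± 0.47), so both overlapped. *IFITM1*, with 0 and 9 counts against 0 and 0, was below the filter. The number of members called in HCC366 depended on the libraries: leaving out ADAR sg1 gave 2 higher (*IFIT2* and *IFIT3*) and 3 lower (*IFIT1*, *IFITM2* and *IFIT5*, the last at -1.22), leaving out ADAR sg2 gave the same 2 higher and *IFIT1* and *IFITM2* lower, and with GC content and length taken into account *IFIT2* (1.21, adjusted p = 0.0269) and *IFITM2* (-1.46, adjusted p = 0.00865) passed.

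In A549 with vehicle, no member passed between ADAR KO and GFP cells with edgeR or DESeq2, and none had an unadjusted p under 0.05 with edgeR, with 0.0324% of all genes called higher and 0.0906% called lower. *IFIT1* had 1.32 and 1.33 CPM in GFP cells and 1.71 and 1.93 CPM in KO cells (0.46 ± 0.33), and *IFIT3* had 1.85 and 2.19 CPM against 3.29 and 1.93 CPM (0.30 ± 0.29). *IFIT5* (21.4 and 19.8 CPM against 20.6 and 21.5 CPM) and *IFITM2* (28.5 and 24.9 CPM against 26.5 and 30.2 CPM) overlapped, with 95% intervals of the log2 difference from -0.26 to 0.34 and from -0.18 to 0.38. *IFITM3* had 5.15 and 5.05 CPM against 4.39 and 3.56 CPM (-0.37 ± 0.23). *IFIT2* and *IFITM1* had at most 4 counts and 1 count in any of these 4 libraries, so a change in them was not detectable at this depth.

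**Figure D2:**
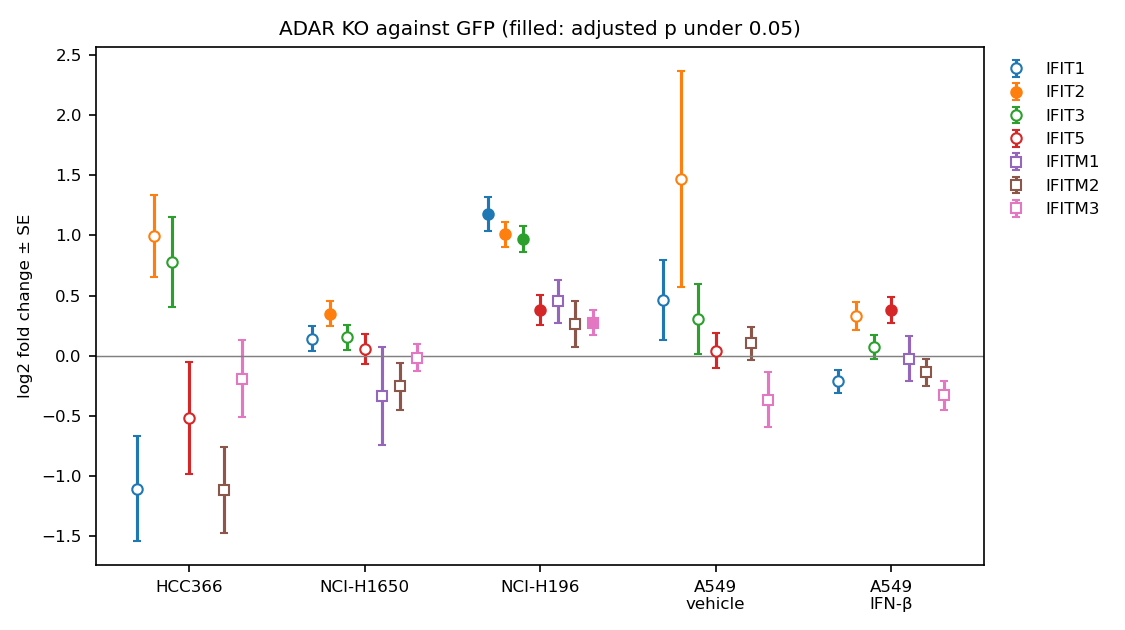
Log2 fold change of ADAR KO against GFP for each gene in each line and treatment, with bars of 1 SE from the edgeR fit and filled symbols where the adjusted p was under 0.05. IFITM1 is left out in HCC366, where it was not tested, and in A549 with vehicle, where it had at most 1 count. In HCC366 IFIT2 and IFIT3 lie above 0 and IFIT1 and IFITM2 below -1, whereas in NCI-H196 every gene drawn lies above 0.

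A test that the knockout effect was equal in the 4 lines without IFN-β (an F-test in 1 edgeR fit over the 20 libraries) passed for 2 of the 7 members, with 4.02% of all genes called. *IFIT1* differed between lines (F = 7.62, adjusted p = 0.024), with log2 effects of -1.16 for HCC366, 0.16 for NCI-H1650, 0.94 for NCI-H196 and 0.45 for A549. *IFITM2* differed as well (F = 7.06, adjusted p = 0.0312), with -1.16, -0.24, 0.25 and 0.09 in the same order. The *IFIT1* call was lost without HCC366 GFP sg2 (adjusted p = 0.541) or NCI-H196 ADAR sg2 (0.0601). The *IFITM2* call was lost without HCC366 GFP sg1, GFP sg2 or ADAR sg2 (0.0782, 0.288 and 0.0519), and without 10 of the 16 libraries of the other lines (up to 0.0925). It held without any 1 of the 4 A549 IFN-β libraries, HCC366 ADAR sg1, NCI-H196 GFP sg2 or NCI-H196 ADAR sg1. For *IFIT2* the 4 effects were 0.95, 0.36, 0.96 and 1.42, and the test of their difference did not pass (adjusted p = 0.507). The 1.42 of A549 rested on 3 and 0 counts in GFP cells against 3 and 4 in KO cells. The test therefore cannot tell whether A549 differed from the other lines.

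IFN-β raised every member in A549, in GFP cells and in ADAR KO cells alike, with 7 of 7 called higher in both. In GFP cells 4.39% of all genes were called higher and 1.31% lower, and in ADAR KO cells 15.5% and 9.04%. In GFP cells it ran from 7.46-fold for *IFITM2* and 9.08-fold for *IFIT5* to 791-fold for *IFIT1*, and *IFIT2* and *IFITM1* rose from 3 counts and 1 count.

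*IFIT1* went from 1.32 and 1.33 CPM with vehicle to 1108 and 1005 CPM with IFN-β in GFP cells, a rise of 9.63 ± 0.17 on the log2 scale (791-fold, adjusted p = 8.34e-28). *IFIT3* went from 1.85 and 2.19 CPM to 574 and 521 CPM (8.04 ± 0.17, 263-fold, adjusted p = 3.03e-26). *IFIT2* went from 0.396 and 0 CPM to 156 and 145 CPM, and its 3 counts with vehicle gave a ratio of 1127 with a counting interval of 385 to 5465. With vehicle each of the 3 genes stood below 3 CPM and with IFN-β above 100 CPM. *IFIT5* started from 21.4 and 19.8 CPM and reached 211 and 161 CPM (3.18 ± 0.13, 9.08-fold, adjusted p = 1.49e-18).

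*IFITM3* went from 5.15 and 5.05 CPM to 113 and 110 CPM in GFP cells (4.45 ± 0.16, 21.8-fold, adjusted p = 3.14e-20). *IFITM2*, the member with the highest starting level, went from 28.5 and 24.9 CPM to 215 and 180 CPM (2.90 ± 0.13, 7.46-fold, adjusted p = 7.93e-18). *IFITM1* went from 0 and 1 counts to 375 and 436 counts, a ratio of 686 with a counting interval of 123 to 27125. The genes that started highest, *IFITM2* and *IFIT5*, had the lowest fold changes. The median over the 7 members was 8.04, or 6.94 with *IFITM1* set to the lower end of its counting interval, against 0.00 for all genes.

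In ADAR KO cells, *IFIT1* went from 1.71 and 1.93 CPM to 967 and 855 CPM (8.95 ± 0.17), and *IFIT3* from 3.29 and 1.93 CPM to 586 and 569 CPM (7.81 ± 0.16). *IFIT2* went from 3 and 4 counts to 1779 and 3652 counts, a ratio of 487 with a counting interval of 236 to 1212. Each of the 3 genes again went from under 4 CPM to over 100 CPM. *IFIT5* reached 232 and 252 CPM (3.52 ± 0.13, 11.5-fold), *IFITM2* 194 and 166 CPM (2.66 ± 0.13, 6.32-fold) and *IFITM3* 96.6 and 80.8 CPM (4.48 ± 0.17, 22.4-fold). *IFITM1* had 0 counts in both vehicle libraries and 331 and 511 counts with IFN-β, and was at least 176-fold higher when set against 3 counts over the group (the lower end of its 95% counting interval was 143). The median over the members was 7.81, or 7.46 with *IFITM1* at the 3-count bound, against -0.0032 for all genes.

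**Figure D3:**
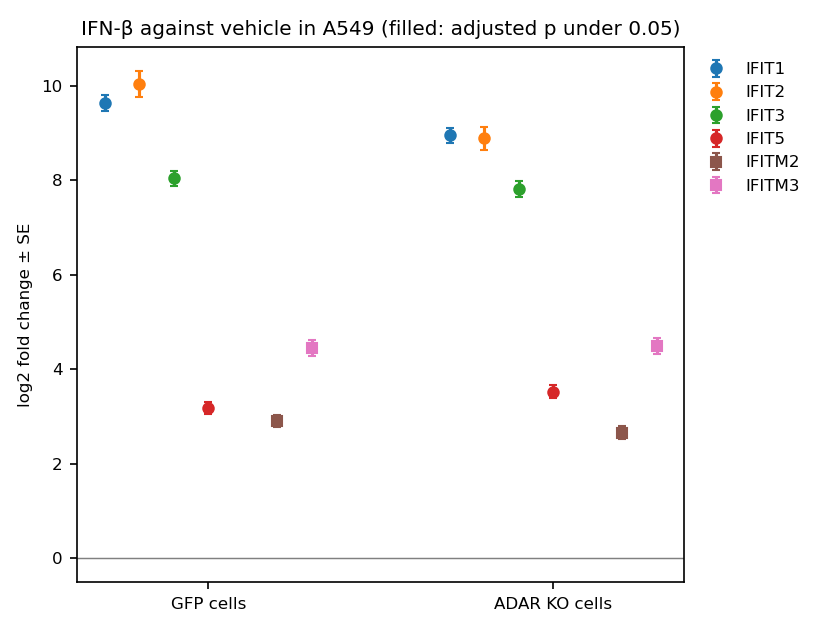
Log2 fold change of IFN-β against vehicle in A549 GFP cells and ADAR KO cells, with bars of 1 SE from the edgeR fit. IFITM1 is left out because it had 0 or 1 counts with vehicle, and IFIT2 rests on 3 and 7 counts with vehicle. IFIT1, IFIT2 and IFIT3 lie near 8 or above, IFITM3 near 4.5, and IFIT5 and IFITM2 at about 3.

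With IFN-β present, ADAR KO and GFP cells were also compared directly. *IFIT5* alone rose, from 211 and 161 CPM in GFP cells to 232 and 252 CPM in KO cells (0.38 ± 0.11, 1.30-fold, adjusted p = 0.0173), with 10.8% of all genes called higher and 6.19% lower. The *IFIT5* call was lost without GFP IFN-β sg2 (adjusted p = 0.265) or ADAR IFN-β sg2 (0.225). *IFIT2* had 156 and 145 CPM against 187 and 190 CPM, with no overlap, and stood at the threshold (0.33 ± 0.12, adjusted p = 0.0503). *IFIT2* passed with DESeq2 (adjusted p = 0.0254) and without A549 GFP vehicle sg1, GFP vehicle sg2 or GFP IFN-β sg1 (0.0461, 0.0425 and 0.0247). *IFITM3* had 113 and 110 CPM against 96.6 and 80.8 CPM (-0.33 ± 0.12, adjusted p = 0.0527, and 0.0326 without ADAR IFN-β sg1), and *IFIT1* had 1108 and 1005 CPM against 967 and 855 CPM (-0.21 ± 0.10, adjusted p = 0.127), both with the KO libraries below the controls. *IFIT3* (0.08 ± 0.10), *IFITM1* (-0.02 ± 0.18) and *IFITM2* (-0.14 ± 0.11) overlapped between the groups.

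The interaction of knockout and IFN-β, which asks whether the response to IFN-β differed between GFP and KO cells, passed for no member with edgeR or DESeq2, and no member had an unadjusted p under 0.05 with edgeR. Of all genes, 4.07% were called higher and 0.977% lower. The 95% intervals of the log2 difference were -0.04 to 0.72 for *IFIT5*, -0.48 to 0.55 for *IFITM3*, -0.60 to 0.12 for *IFITM2*, -0.86 to 0.40 for *IFIT3* and -1.38 to 0.03 for *IFIT1*. Without GFP IFN-β sg1 *IFIT5* passed (0.55, adjusted p = 0.0277). The intervals of *IFIT2* (-2.99 to 0.69) and *IFITM1* (-2.19 to 6.92) were wide, as both had few counts with vehicle.

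*IFIT2* and *IFIT3* were set against the IFITMs in each comparison as the mean log2 fold change of the first pair minus that of the IFITMs, a description with no test. For the knockout the difference was 1.54 in HCC366 (0.89 for the IFIT pair and -0.66 for the 2 IFITMs tested), 0.66 in NCI-H196 (0.99 and 0.33), 0.46 in NCI-H1650 (0.25 and -0.20), 1.77 in A549 with vehicle (0.89 and -0.88) and 0.37 in A549 with IFN-β (0.20 and -0.16). For the interaction in A549 it was -1.41. In A549 with vehicle it rested on *IFIT2* and *IFITM1* at 0 to 4 counts. At such counts it cannot be set against the spread of the libraries (SD 0.448), since log2 levels per library used a larger prior count than the fit. Those levels, with *IFITM1* included, gave -1.54 and -2.16 in GFP cells and -1.09 and -1.36 in KO cells. With *IFITM2* and *IFITM3* alone the fitted difference was 1.02, and -0.58 for the interaction. In A549 with IFN-β the fitted difference exceeded the spread (SD 0.150). In HCC366 it exceeded the spread of the libraries (SD 0.303) and ranged from 1.30 to 3.46 under the alternatives. The values from 2.42 to 3.46 came from fits that also took in *IFITM1*, with 0 and 9 counts in GFP cells. In NCI-H196 the difference did not exceed the spread (SD 1.37). In NCI-H1650 it was also within the spread (SD 0.491) and reversed to -0.11 without GFP sg2. There *IFITM1*, with 9 counts left in GFP cells, was at 0.64, *IFIT2* at 0.17, *IFIT3* at -0.024 and *IFITM3* at 0.050. *IFITM2* stayed below 0 without any 1 library (-0.39 to -0.14). The NCI-H196 spread rests on *IFITM1*, with 0 counts in GFP sg2. Without GFP sg1 the NCI-H196 difference was -3.16, and 0.074 with *IFITM2* and *IFITM3* alone. Per library, the mean log2 CPM of the IFIT pair minus that of *IFITM2* and *IFITM3* was 0.88 and 1.48 in HCC366 GFP cells and 2.74 and 2.78 in HCC366 KO cells, with both KO libraries higher. In NCI-H1650 the values were 4.46 and 3.90 against 4.42 and 4.73, which overlapped, and in NCI-H196 they were 1.37 and 2.06 against 2.25 and 2.06, so that 1 control was level with the lower KO library.

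For IFN-β in A549 the difference between the IFIT pair and the IFITMs was 3.54 in GFP cells and 2.13 in KO cells, and 5.36 and 4.78 when *IFITM1* with its 0 to 1 counts at vehicle was left out. Between control cells of the lines, it was, against A549, 5.11 for HCC366, 7.26 for NCI-H1650 and 3.79 for NCI-H196, or 5.64, 8.57 and 5.84 without *IFITM1*. Per library, the IFIT pair stood below *IFITM2* and *IFITM3* in A549 with vehicle (-4.19 to -3.02 over 4 libraries) and above them with IFN-β (0.94 to 1.51).

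The make-up within each family also differed between lines, described as ratios per exon length. The *IFIT2* to *IFIT1* ratio was 0.150 and 0.154 in A549 GFP cells with IFN-β and 0.206 and 0.237 in A549 KO cells with IFN-β. It was 3.10 to 4.41 in the 4 NCI-H1650 libraries, and in NCI-H196 it was 4.25 and 1.07 in GFP cells and 3.59 and 3.51 in KO cells. In HCC366 it was 1.31 and 0.886 in GFP cells and 3.72 and 5.08 in KO cells, with no overlap. *IFIT1* was thus the more abundant of the pair in A549 with IFN-β, and *IFIT2* was the more abundant in NCI-H1650. *IFIT2* was also the more abundant in NCI-H196 except in GFP sg2, where each gene had 15 counts.

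The *IFITM3* to *IFITM2* ratio per exon length was also lowest in A549. It was 0.0665 to 0.114 in A549 with vehicle, 0.276 to 0.344 in A549 with IFN-β and 4.27 to 5.84 in NCI-H1650. It was 4.95 to 5.01 in the 3 NCI-H196 libraries with 10 or more counts of both genes. In HCC366 it was 2.89 and 4.08 in GFP cells and 7.26 and 6.15 in KO cells, again without overlap. With 2 libraries a group, a permutation test of single values cannot reach 0.05, and none was run.

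**Figure D4:**
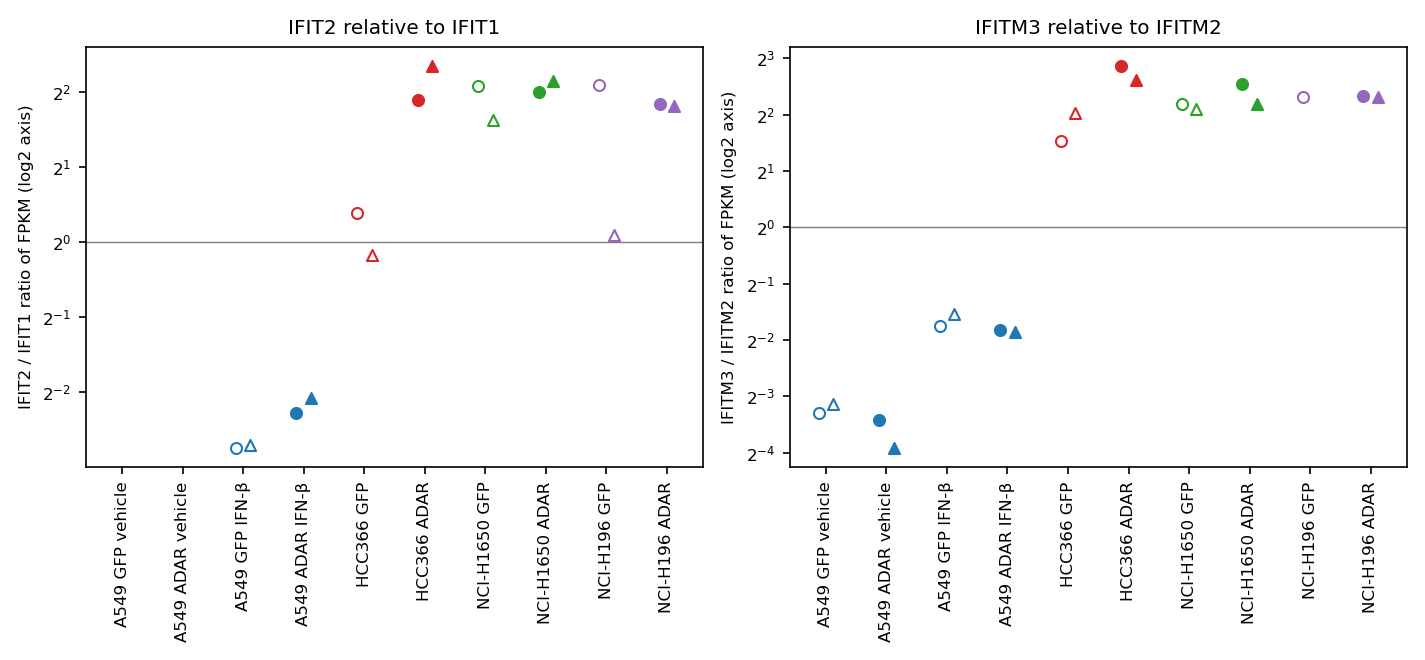
Ratio of IFIT2 to IFIT1 (left) and of IFITM3 to IFITM2 (right) per exon length in each library, on a log2 axis, with circles for sg1, triangles for sg2, open symbols for GFP and filled symbols for ADAR KO. Libraries with fewer than 10 counts of either gene are left out, which removes A549 with vehicle on the left and NCI-H196 GFP sg2 on the right. A549 lies below 1 in both plots, and HCC366 KO cells lie above HCC366 GFP cells.

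Over the 20 libraries, log2 levels of *IFIT2* and *IFIT3* had a Pearson correlation of 0.957, those of *IFIT2* and *IFITM3* of 0.931, and those of *IFIT2* and *IFITM2* of -0.12. The libraries share lines and treatments, so these values are descriptions. The genes outside the families whose levels were most like the mean of *IFIT1*, *IFIT2* and *IFIT3* were *IFIH1*, which encodes the RNA sensor MDA5 (r = 0.983), *HERC6* (0.982), *PARP10* (0.977), *DDX60* (0.970) and *OAS2* (0.970). Those most like the mean of the IFITMs were *MOV10* (0.972), *DTX3L* (0.946), *PARP9* (0.936), *STAT2* (0.930) and *TRANK1* (0.929). Without NCI-H196 GFP sg2 all 5 of the first group but only 2 of the second stayed among the 5 most alike.

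Other genes of the interferon pathway were counted from lists. Of 23 other antiviral interferon-stimulated genes, all 23 rose with IFN-β in A549 GFP cells (median 8.13) and all 23 in KO cells (median 7.78), where 4.39% and 15.5% of all genes rose. Several of these had 0 counts with vehicle, so the medians rest in part on fitted values. Under the knockout 6 of 22 tested rose in NCI-H1650, led by *RSAD2*, which encodes viperin (0.77 ± 0.11, adjusted p = 3.1e-07), and 1 fell, *SAMD9L* (-0.43, adjusted p = 0.0306), beside 6.18% and 2.42% of all genes. In NCI-H196, in the fit whose family calls depended on single libraries, 20 of 23 rose, led by *IFIH1* (1.71 ± 0.15), beside 10.3% of all genes. In HCC366 1 of 18 tested passed, *SAMD9L* as lower (-3.46, adjusted p = 0.0497) beside 0.0449% of all genes, and in A549 with IFN-β 3 of 23 rose, led by *DDX58*, which encodes RIG-I (0.68 ± 0.10, adjusted p = 1.69e-05), beside 10.8% of all genes. In A549 with vehicle none passed. The list medians under the knockout were 0.89 in NCI-H196, 0.51 in HCC366, 0.20 in NCI-H1650, 0.17 in A549 with vehicle and -0.04 in A549 with IFN-β.

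Among 12 genes of the receptor and its signalling, 7 rose with IFN-β in A549 GFP cells and 8 in KO cells, led in both by the transcription factor gene *IRF7* (4.89 ± 0.19 and 4.65 ± 0.19), against 4.39% and 15.5% of all genes. Under the knockout 4 rose in NCI-H1650 and 2 in A549 with IFN-β, led in both by *IRF1* (0.84 ± 0.12 and 0.98 ± 0.12), against 6.18% and 10.8% of all genes. In NCI-H196 6 rose, led by the feedback inhibitor gene *SOCS1* (1.41 ± 0.36), against 10.3% of all genes, in the fit whose family calls depended on single libraries. None of 11 tested passed in HCC366 and none of 12 in A549 with vehicle.

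The genes of the interferons themselves were read alongside. In NCI-H1650 *IFNB1* had 6 and 8 counts in GFP cells and 59 and 59 in KO cells (2.85 ± 0.35, adjusted p = 1.92e-08), and *IFNL1* had 32 and 44 against 174 and 180 (2.01 ± 0.20). All 4 interferon genes rose there, while *IFIT2* was the only family member to do so. In A549 with IFN-β *IFNB1* had 0 and 0 counts in GFP cells and 17 and 62 in KO cells, and *IFNL1* had 0 and 0 against 24 and 88. All 4 interferon genes passed in that comparison too, with *IFIT5* as the 1 family member that rose. In NCI-H196 *IFNL1* was the 1 interferon gene tested and rose (2.81 ± 0.45), from 10 and 0 counts in GFP cells to 9 and 62 in KO cells. The 0 was in GFP sg2, where 1 read was worth 14.7 CPM, so the rise rests on 1 control library, GFP sg1. For all genes of this line DESeq2 called 11 higher, against 1456 with edgeR.

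Of 3 relatives of the families, *IFIT1B* had 10 or more counts in any library, all in A549 with IFN-β, with 91 and 189 counts in GFP cells against 0 and 1 with vehicle (adjusted p = 5.42e-11) and 76 and 102 in KO cells against 0 and 1. *IFIT1B* lies within the IFIT stretch, between *IFIT3* and *IFIT1*. *LIPA*, the antisense neighbour, rose far less than the IFITs around it with IFN-β (0.79 ± 0.14 in GFP cells and 0.76 ± 0.14 in KO cells). Of 9 neighbours of the IFITM stretch tested within 150 kb, 1 passed with IFN-β, *PGGHG* (0.86 ± 0.19 in GFP cells and 0.79 ± 0.19 in KO cells). Of all genes, 4.39% and 15.5% were called higher in these comparisons. Under the knockout 1 neighbour passed in NCI-H1650, *CH25H* (2.24 ± 0.40, adjusted p = 6.35e-05), an interferon-stimulated gene that encodes a cholesterol hydroxylase. It was 1 of 2 tested near the IFITs, with 0 of 9 near the IFITMs, beside 6.18% of all genes called higher. In NCI-H196 *ANO9* near the IFITMs passed (3.39 ± 0.84, adjusted p = 0.000873), 1 of 8 tested there, beside 10.3% of all genes. The family calls of that NCI-H196 fit depended on single libraries.

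Markers of cell type moved in some comparisons. In A549 with IFN-β, 3 of 4 epithelial markers tested were lower in ADAR KO cells, beside 6.19% of all genes. They were led by *CDH1*, which encodes E-cadherin (-0.74, adjusted p = 0.0018). IFN-β raised 2 of these 4 in GFP cells and 1 in KO cells, *CDH1* in both (0.68 and 0.66), beside 4.39% and 15.5% of all genes. In NCI-H196 the 1 squamous marker tested, *TP63*, was higher in KO cells (0.93, adjusted p = 4.28e-05), beside 10.3% of all genes. That fit called 1456 genes higher, against 11 with DESeq2 and 89 with all 20 libraries in 1 fit. No leukocyte or endothelial marker was above the filter in any knockout or IFN-β comparison, so none could pass. Of the adenocarcinoma list 1 gene was tested in A549 and none in the other lines. Of the neuroendocrine list 2 genes were tested in NCI-H1650 and in A549, and none in HCC366 or NCI-H196. None of those tested passed for the knockout or for IFN-β. The part of marker changes in the results for the families was not tested.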

How the data were processed

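The authors depleted ribosomal RNA, made strand-specific paired-end libraries, ran STAR against hg19 and HTSeq for counts of each Ensembl gene, and they tested with DESeq2. Tool versions, the annotation release and the strand setting of HTSeq are not given in the sources used here. Each library was deposited as 1 file of raw counts with no normalization. The 5 summary lines of each file were left out of library sizes and tests. Of 58233 gene identifiers, 55727 matched a symbol (97.4% of counts) and 2506 did not. No 2 libraries were identical. Reads aligned to more than 1 place were not counted.

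Groups came from the sample labels, with the sgRNA number as the replicate number. Counts were scaled by TMM and tested with edgeR 4.0.16 (quasi-likelihood test, R 4.3.3), with genes under the filterByExpr limit (minimum count 10) left out and Benjamini-Hochberg adjustment over all genes tested at 0.05. HCC366, NCI-H1650 and NCI-H196 each had a fit of 4 libraries, A549 a fit of 8, the control lines a fit of 8 and the test of lines a fit of 20. Fold changes used a prior count of 0.125. Errors are SE of the fit, from spread shared across genes, unless SD is stated. Counting intervals are exact 95% intervals, and a count of 0 was set against a floor of 3 counts. Log2 levels for correlations and for the difference per library used a prior count of 2. FPKM used the union of exons of the GENCODE annotation lifted to GRCh37.

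The alternatives were DESeq2 1.42.0, its size factors within edgeR, no filter, all 20 libraries in 1 fit, each library left out, a block for the sgRNA number and, in HCC366, offsets for GC content and length. Leaving *IFITM1* out of the family means, a crossed block in HCC366 and the block in the test of lines were chosen after seeing the data. All 7 members are named in every comparison, and from each list the gene that moved most in each direction among those that passed. The members, lists and tests were chosen with earlier results of these data known. The fits were tested on simulated data with known changes. Depth sets the precision, from 62679 to 19520189 counts a library. *PECAM1* had no matching identifier and was not analysed here. Promoter sequences came from RefSeq (GRCh38.p14).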

Additional observations from a re-analysis of the deposited data

Results flagged for a closer look

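The effect of the ADAR knockout differed between lines for *IFIT1*, by an F-test in edgeR that it was equal in 4 lines (adjusted p = 0.024), with log2 effects from -1.16 in HCC366 to 0.94 in NCI-H196. For *IFITM2* the same test gave an adjusted p of 0.0312, with effects from -1.16 in HCC366 to 0.25 in NCI-H196. Both calls depended on single libraries, and that of *IFITM2* was lost with no filter (adjusted p = 0.162 in the F-test). Within the NCI-H196 fit *IFIT1* ran from -1.29 to 1.27 without 1 library and was -0.38 with DESeq2. Among the other interferon-stimulated genes, the response of *ISG15* to IFN-β in A549 differed between ADAR KO and GFP cells (interaction -1.03, adjusted p = 0.019), a smaller rise in KO cells. *ISG15* had the larger difference of the 2 of 23 such genes called lower in the interaction, the other being *OAS1* (-0.65, adjusted p = 0.0166), with 0.977% of all genes called lower.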

How the results depend on the processing

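The 7 rises with IFN-β in A549 GFP cells and in ADAR KO cells passed under every alternative run, as did those of *IFIT1*, *IFIT2*, *IFIT3* and *IFIT5* over A549 in HCC366 and NCI-H1650. The cause of each change listed here was not tested. For the knockout in HCC366, where no member passed, the number called higher was 2 with all 20 libraries in 1 fit and 1 with GC content and length offsets, and the number called lower was 2 and 1, and 1 with no filter. *IFIT5* there turned to 0.012 with the offsets. In NCI-H1650 the count fell to 0 with DESeq2, with its size factors in edgeR and with all 20 libraries. In NCI-H196 the 5 calls became 0 with DESeq2, 3 with no filter and 0 with all 20 libraries, and *IFIT1* was -0.38 with DESeq2. In A549 with IFN-β the 1 call became 2 with DESeq2, 2 with no filter and 0 with all 20 libraries. *IFITM2* was called lower in neither NCI-H1650 nor NCI-H196 against A549 by DESeq2 (0 calls), *IFIT3* in HCC366 against NCI-H196 turned to -0.24 with DESeq2, *IFIT5* in NCI-H1650 against NCI-H196 to -0.0088 with no filter, *IFITM3* in the interaction to -0.0014 with all 20 libraries, and the test of lines called 1 member with no filter.

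The sgRNA numbers did not pair the libraries (correlations of deviations from -0.253 to -0.0048), so the block is given once. With the replicate block the NCI-H196 count was 1, and *IFIT5* in NCI-H1650 against NCI-H196 turned to -0.12. In HCC366 the block with GC content and length offsets gave 2 higher and 2 lower and turned *IFIT5* to 0.074, and the crossed block gave 1 higher. No other count of calls moved by over 1.5 times with the block.

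For HCC366 KO the difference between *IFIT2* and *IFIT3* and the IFITMs was 2.09 with the offsets. It was 2.42 with DESeq2, 2.89 with no filter and 3.46 with all 20 libraries. In those settings *IFITM1*, which the main value of 1.54 leaves out, was not filtered out. With all 20 libraries *IFITM1* was at -6.49, from 0 and 9 counts in GFP cells against 0 and 0. For IFN-β in ADAR KO cells the difference between the families was 2.47 with DESeq2. With *IFITM2* and *IFITM3* alone it was 1.02 for KO in A549 with vehicle, 5.36 and 4.78 for IFN-β in GFP and KO cells, -0.58 for the interaction, and 5.64, 8.57 and 5.84 for HCC366, NCI-H1650 and NCI-H196 against A549.

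Leaving out 1 library at a time, counts of calls ran from 0 to 2 higher and 0 to 3 lower in HCC366, 0 to 1 in NCI-H1650, 0 to 5 in NCI-H196, 0 to 2 higher and 0 to 1 lower in A549 with IFN-β, 0 to 1 for the interaction, 0 to 1 for lower in NCI-H196 against A549 and 0 to 3 for the test of lines. In HCC366 *IFIT5* ran from -1.22 to 0.052 and *IFITM3* from -0.45 to 0.081. In NCI-H1650 *IFIT3* ran from -0.024 to 0.32, *IFIT5* from -0.12 to 0.22, *IFITM1* from -0.95 to 0.64 and *IFITM3* from -0.20 to 0.12. In NCI-H196 *IFIT1* ran from -1.29 to 1.27, *IFIT3* from -0.48 to 1.04, *IFIT5* from -0.30 to 0.52 and *IFITM2* from -0.25 to 0.32. In A549 with vehicle *IFIT2* ran from -0.025 to 5.34, *IFIT3* from -0.10 to 0.67, *IFIT5* from -0.020 to 0.085 and *IFITM2* from -0.0030 to 0.19, and *IFITM1* with IFN-β from -0.22 to 0.17. For the interaction *IFIT2* ran from -5.01 to 0.36, *IFIT3* from -0.59 to 0.18, *IFITM1* from -0.021 to 2.93 and *IFITM3* from -0.11 to 0.19. *IFITM1* ran from -1.79 to 6.04 in HCC366 and from -1.61 to 9.51 in NCI-H196 against A549. Between HCC366 and NCI-H1650 *IFIT1* ran from -0.73 to 0.62 and *IFIT5* from -0.14 to 0.84. Between HCC366 and NCI-H196 *IFIT3* ran from -0.75 to 0.82, *IFIT5* from -0.0098 to 0.98 and *IFITM1* from -9.84 to 6.08, and between NCI-H1650 and NCI-H196 *IFIT5* ran from -0.36 to 0.25 and *IFITM1* from -3.47 to 7.11.

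The difference between *IFIT2* and *IFIT3* and the IFITMs ran, without 1 library, from 1.30 to 1.90 in HCC366, -0.11 to 0.91 in NCI-H1650, -3.16 to 0.71 in NCI-H196, 0.35 to 3.82 in A549 with vehicle, 2.13 to 5.56 for IFN-β in GFP cells and -3.46 to 0.016 for the interaction. Against A549 it ran from 4.01 to 6.78 in HCC366, 6.17 to 8.83 in NCI-H1650 and 2.73 to 7.64 in NCI-H196. The -3.16 and 7.64 are set by *IFITM1*, with 0 counts in the remaining control library, and with *IFITM2* and *IFITM3* alone the -3.16 became 0.074, an alternative chosen after seeing the data. The -0.11 in NCI-H1650 includes *IFITM1* at 0.64, with 9 counts in the remaining control library. Where a group keeps 1 library, that library is assumed to vary like the other groups. Over the values of single members under the alternatives, 663 of those that had passed stayed past the threshold in the same direction, 71 lost it and 10 reversed. Of those that had not passed, 411 kept that result, 34 passed, 32 reversed and 1 moved.

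Depth limits *IFITM1* in HCC366, in NCI-H1650 (9 and 26 counts in GFP cells) and in A549 with vehicle, *IFIT2* in A549 with vehicle, and all values of NCI-H196 GFP sg2, where 3 counts are worth 43.98 CPM.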
